A study of Mus musculus with 13 samples.

Results

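The suppressor of cytokine signalling (SOCS) family and Stat3, the transcription factor whose signal Socs3 is known for limiting, were followed through microglia of wild type mice and of the 5xFAD mouse model of Alzheimer's disease. The set was 9 genes (Socs1 to Socs7, Cish and Stat3), matched by symbol, of the 19737 genes in the authors' table. They were chosen because Socs3 differed strongly between 5xFAD microglia given a circular RNA and 5xFAD microglia labelled as knockout for the kinase PKR. That contrast is therefore described for the 9 genes and not tested.

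SOCS proteins work as a feedback brake on cytokine receptors. A cytokine such as interleukin 6 or oncostatin M activates receptor-bound Janus kinases (JAKs), these phosphorylate STAT proteins, and the STATs switch on SOCS genes among their targets. The SOCS proteins then bind the receptor or the kinase, and their SOCS box recruits elongins and a cullin to mark bound proteins for breakdown. In microglia, the resident macrophages of the brain, Socs3 is known as the brake on signalling from gp130 receptors through STAT3.

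Microglial RNA, depleted of ribosomal RNA, was sequenced in 13 libraries. The vector AAV PHP.eB-EGFP was carried by wild type mice (3 libraries) and 5xFAD mice (2 libraries). It is an adeno-associated virus encoding a fluorescent protein. A further 4 libraries came from 5xFAD mice given AAV with circPOLR2A, a circular RNA, and their treatment labels read (9,10), (9,11), (9,12) and (9,13). These libraries were grouped by title, and whether they received 1 construct is not settled by the labels. The last group was labelled 5xFAD; PKR KO (n = 4), and its labels name no virus, so the knockout and the lack of a named vector cannot be told apart in it. Only these libraries carry library names in their labels, so the knockout and any separate preparation of these libraries cannot be told apart either. The labels give no age or sex, no promoter for either vector, no method of isolating the cells and no statement on whether the knockout is confined to microglia. Nothing in them says whether each library came from its own animal, so p-values measure the spread between these libraries.

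All 10 microglial markers examined were present in every library, and their summed level was 3012 to 5594 FPKM (fragments per kilobase of gene, scaled to library depth). Recovered depth was 57.7 to 70.0 M fragments in the PKR knockout libraries and 45.2 to 54.9 M in all other libraries, without overlap. Wild type replicate 3 stood apart, with 7 oligodendrocyte genes summing to 1584 FPKM against 353 and 393 in the other wild type libraries and 226 to 790 in 5xFAD libraries. Differences of Socs6, Socs3, Osm and Junb from wild type are also given without that library. Eif2ak2, the PKR gene, was at 3.31 to 4.61 FPKM in the knockout libraries and at 6.49 to 8.11 in the other 5xFAD libraries, but wild type libraries (4.14 to 5.23) overlapped the knockout range. No deleted stretch of the gene was examined here, so loss of PKR was not checked by these values, and the group is called PKR knockout after its label. No pair of replicates agreed within counting noise (chi-square per degree of freedom of at least 13.2).

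Of the 9 genes, 5 had a window in the RefSeq promoter table (GRCm38.p6, 250 bases before to 50 bases after a transcript start), namely Socs1, Socs3, Socs4, Cish and Stat3. These windows were searched for TTCNNNGAA, the core element that STAT proteins bind, which reads the same on both strands. Socs3 held 1 match and Cish held 2, whereas Socs1, Socs4 and Stat3 held none. Among all 32851 windows, 2726 (8.30%) held at least 1 match and 150 (0.457%) held at least 2. TGANTCA, the AP-1 element, was in none of the 5 windows and in 7.81% of all windows. The stretches with matches are shown because Socs3 and Cish are the family members best known as STAT targets, with matches in capitals:
Socs3, chr11:117969452-117969616, minus strand: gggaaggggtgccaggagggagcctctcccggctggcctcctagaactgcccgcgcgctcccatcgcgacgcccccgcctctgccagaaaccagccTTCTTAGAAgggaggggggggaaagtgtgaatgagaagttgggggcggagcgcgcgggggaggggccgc
Cish, chr9:107296655-107296682, plus strand: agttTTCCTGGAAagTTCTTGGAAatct
The Socs3 match began 154 bases before the RefSeq start at 117969366. Both lie inside the Socs3 gene as GENCODE places it, 117966079 to 117970047. The Cish matches began at the RefSeq start, 107296659, and 11 bases after it. For Cish too the GENCODE gene, from 107296026, begins before the matches. The 2 annotations thus differ on where each gene begins. A match is only a run of letters, and binding was not measured here.

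By FPKM, which is per length and so allows genes to be ranked, Socs3 was the most abundant of the 9 in every group mean, at 14.8 to 70.9 FPKM. Stat3 followed at 10.2 to 13.3 FPKM. Socs4, Socs5, Socs6 and Socs7 lay between 2.04 and 6.77 FPKM, with Socs6 the lowest of these 4 in wild type and the highest in each 5xFAD group, with no overlap with Socs7 in any group. Socs7 and Socs5 overlapped in wild type alone, and Socs5 and Socs4 overlapped in all 4 groups. Socs1, Socs2 and Cish were below 1 FPKM in all 13 libraries. The filter for testing was a mean of at least 1 FPKM over all libraries, which 6 of the 9 genes passed. In bulk RNA, fewer cells of a type and less RNA per cell cannot be told apart.

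**Figure D1:**
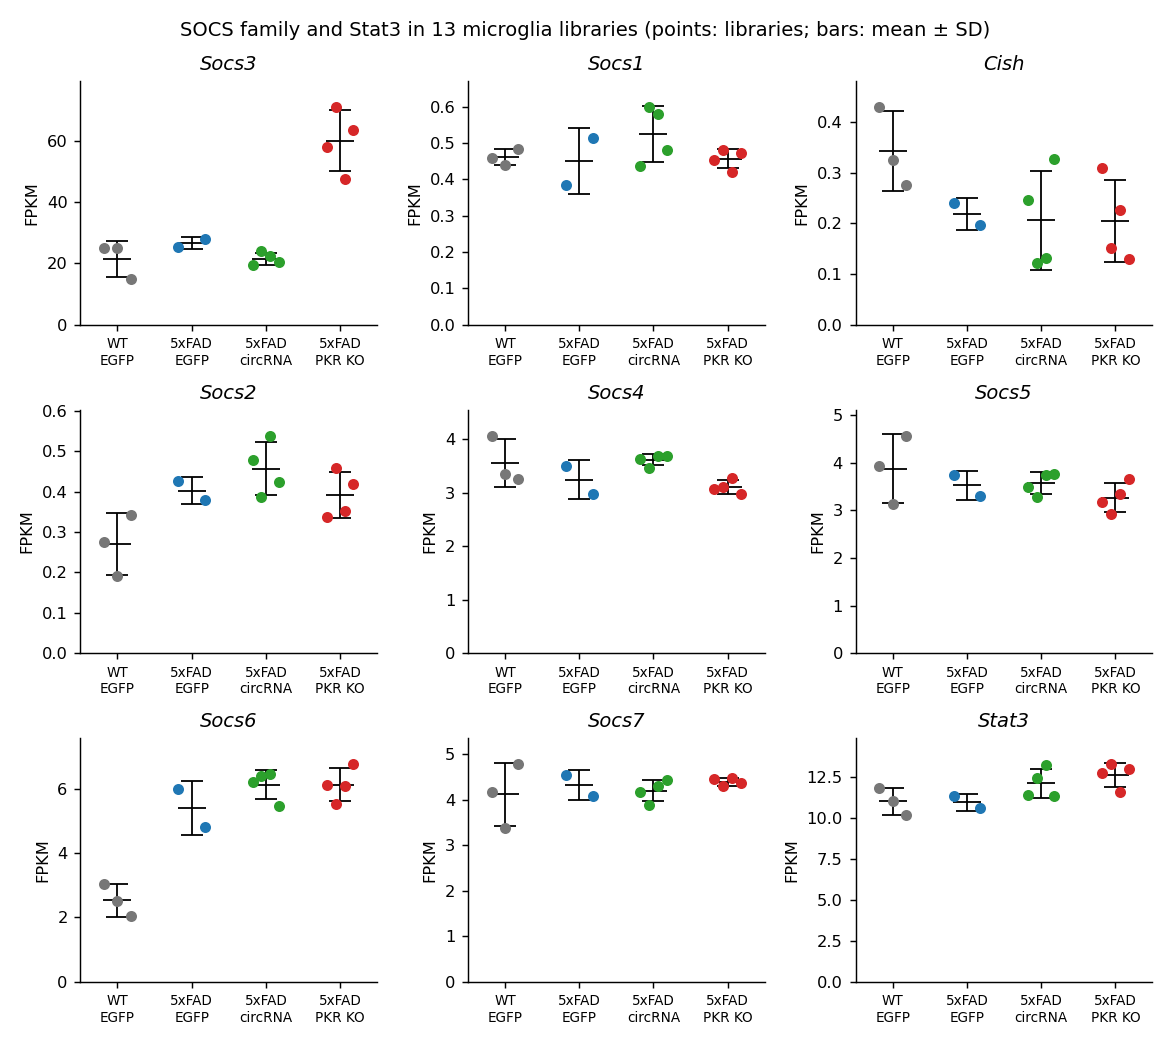
FPKM of the 9 genes in each of 13 libraries (points), with the mean and SD of each group (bars); each panel has its own axis from 0. All 4 PKR knockout libraries lie above every other library for Socs3, and all 10 5xFAD libraries lie above the 3 wild type libraries for Socs6.

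Socs6 was the member that separated 5xFAD from wild type. Its protein carries an SH2 domain and a SOCS box and is known for acting on receptor tyrosine kinases rather than on the classical JAK-STAT cytokines. The gene lies on chromosome 18, 88665224 to 88927481, on the minus strand of GRCm38, and overlaps the unnamed models AC118614.1, AC122398.2 and AC122398.3. Socs6 stood at 3.05, 2.50 and 2.04 FPKM in the wild type libraries and at 5.99 and 4.81 FPKM in 5xFAD with EGFP. It stood at 6.20, 6.39, 6.45 and 5.45 FPKM with circRNA and at 6.10, 5.51, 6.09 and 6.77 FPKM in PKR knockout. Every 5xFAD library was above every wild type library, and the 3 5xFAD groups overlapped one another.

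Differences were tested with limma on log2(FPKM + 1), a scale that understates changes of low genes, with Benjamini-Hochberg adjustment over 10817 genes and a threshold of 0.05. Against wild type, Socs6 rose by 0.86 log2 units in 5xFAD EGFP (SE 0.12, limma adjusted p = 0.000731), a ratio of mean FPKM of 2.13. With circRNA the rise was 1.02 (SE 0.10, limma adjusted p = 2.09e-05). PKR knockout libraries exceeded wild type by the same 1.02 (SE 0.10, limma adjusted p = 1.52e-05). These 3 comparisons share the wild type libraries, and with wild type replicate 3 left out the rises were 0.76, 0.92 and 0.92 (limma adjusted p = 0.00119, 5.37e-05 and 4.09e-05). Between 5xFAD groups, Socs6 differed from EGFP by 0.16 (SE 0.12) both with circRNA and in PKR knockout, and neither difference passed (limma adjusted p = 0.739 and 0.570). They were 0.026 and 0.024 without 5xFAD EGFP replicate 2, and 0.29 in both without replicate 1.

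Markers of other cells also moved against wild type. Endothelial and mural markers summed to 81.9 to 191 FPKM in wild type and 35.7 to 97.3 FPKM in the 5xFAD libraries, and of 8 tested 7 fell in 5xFAD EGFP, 4 with circRNA and 7 in PKR knockout. Border macrophage markers summed to 41.9 to 66.3 FPKM in wild type and 15.5 to 28.6 FPKM in 5xFAD libraries, and all 6 fell in each of the 3 groups. Of all tested genes, 6.35% fell in 5xFAD EGFP, 8.05% with circRNA and 19.4% in PKR knockout. The endothelial sums of wild type and circRNA libraries overlapped, those of border macrophages did not overlap with any 5xFAD library, and their part in this and the other changes against wild type was not tested.

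Socs6 was the only one of the 6 tested members to pass in 5xFAD EGFP against wild type, where 14.0% of all tested genes passed. It was also the only one to pass with circRNA against wild type, where 25.8% of all genes passed. Socs6 and Socs3 passed in PKR knockout against wild type, where 37.0% of all genes passed, and nothing is read from the pass of Socs3, since these knockout libraries were used to choose it. No member passed with circRNA against EGFP in 5xFAD, and no gene of the 10817 did (0%), although 523 genes and no member had an unadjusted limma p under 0.05. No member passed in PKR knockout against EGFP in 5xFAD, where 9 genes (0.0832%) passed, all higher. Fitted with the 2 groups alone, 206 genes passed as higher and 335 as lower there, and with library weights 473 and 349. In that comparison Socs3 was the 1 member with an unadjusted limma p under 0.05. In wild type comparisons these shares are wide backgrounds, against which 1 or 2 of 6 is not a count that stands out.

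**Figure D2:**
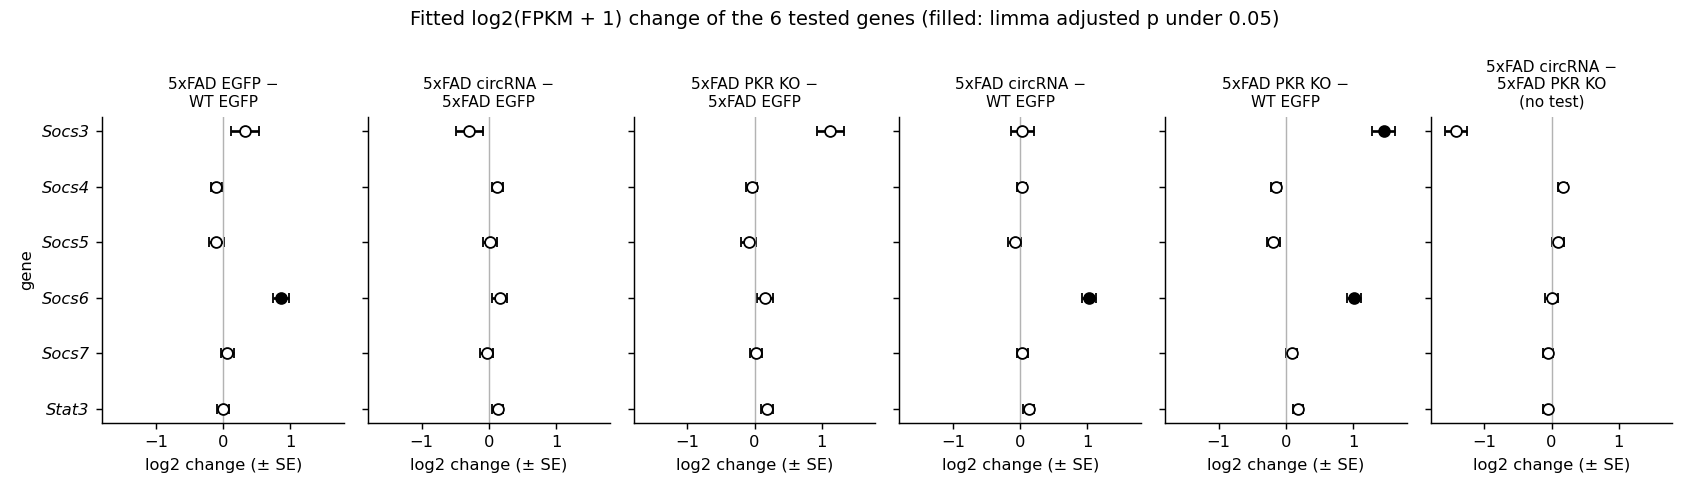
Fitted log2(FPKM + 1) change (x axis, with SE) of the 6 tested genes (y axis) in each comparison; filled points passed limma's adjusted threshold, and the last panel has no test. Socs6 lies between 0.86 and 1.02 in the 3 panels against wild type, and Socs3 lies at 1.13 and 1.46 in the 2 panels of PKR knockout against EGFP groups.

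Socs3 was high in 1 group. Its protein binds gp130 and inhibits the attached JAKs, and its gene lies on chromosome 11, 117966079 to 117970047, minus strand. Socs3 was at 24.9, 24.9 and 14.8 FPKM in wild type and at 25.2 and 27.97 FPKM in 5xFAD with EGFP. With circRNA it was at 19.6, 23.9, 22.4 and 20.4 FPKM. In PKR knockout it was at 57.9, 70.9, 47.5 and 63.5 FPKM. The lowest knockout library was above the highest of the other 9, whereas circRNA and wild type overlapped and the low wild type value was replicate 3. Between 2161 and 14348 fragments stood behind these values, a counting error of 0.835% to 2.15%.

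The 1 Socs3 comparison that used neither group of the selecting contrast was 5xFAD EGFP against wild type. There the log2 change was 0.33 (SE 0.21, limma adjusted p = 0.361). Leaving out wild type replicate 3 made it 0.09 (limma adjusted p = 0.731). The comparisons that follow contain the libraries on which Socs3 was chosen and are not independent of that choice. PKR knockout exceeded wild type by 1.46 (SE 0.18, limma adjusted p = 5.88e-05), or by 1.22 when wild type replicate 3 was left out (limma adjusted p = 4.56e-05). Against 5xFAD EGFP the knockout was higher by 1.13 (SE 0.20), which missed the threshold (limma adjusted p = 0.0644). The group means were 26.6 ± 1.96 FPKM with EGFP (SD, n = 2) and 59.9 ± 9.88 FPKM in the knockout (SD, n = 4). The Socs3 difference passed in 4 of 14 alternatives, namely with the 2 groups alone (limma adjusted p = 0.00704), library weights (0.00367), median-ratio scaling (0.0424) and a replicate block (0.0367). It did not pass in the other 10, among them every fit with 1 library left out, where its size was 1.05 to 1.24 (limma adjusted p = 0.0708 to 0.600). With circRNA, Socs3 was 0.29 lower than with EGFP (SE 0.20, limma adjusted p = 0.739). It differed from wild type by 0.03 (SE 0.18, limma adjusted p = 0.914), or by -0.20 without wild type replicate 3 (limma adjusted p = 0.312).

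In the contrast used for the choice, circRNA against PKR knockout, the means were 21.6 ± 1.98 and 59.9 ± 9.88 FPKM (SD, n = 4 each). The log2 difference was -1.42 (SE 0.16), a description of the values on which Socs3 was chosen. Over all genes 6.19% passed limma's threshold in this contrast, 4.28% higher and 1.91% lower with circRNA. The other tested members differed by -0.06 (Stat3), -0.05 (Socs7), 0.00 (Socs6), 0.10 (Socs5) and 0.17 (Socs4). Socs4 did not overlap between these groups, at 3.46 to 3.68 FPKM with circRNA and 2.97 to 3.28 FPKM in PKR knockout.

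Socs3 also made up its largest share of the family in the knockout libraries. It made up 48.5% to 65.2% of the summed FPKM of the 8 SOCS genes in wild type libraries, 57.2% to 63.2% in 5xFAD EGFP and 51.2% to 56.9% with circRNA. In PKR knockout libraries it made up 72.3% to 80.7%. Per unit of Stat3, Socs3 stood at 1.45 to 2.64 in the 9 other libraries and at 4.10 to 5.34 in the knockout libraries. The knockout libraries lay above all others on both measures, which rest on the same Socs3 values.

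Stat3 itself varied little. STAT3 is activated by phosphorylation, which an RNA level does not measure. The gene lies on chromosome 11, 100885098 to 100939540, minus strand, and its end overlaps that of Stat5a on the plus strand. Stat3 was at 11.8, 11.0 and 10.2 FPKM in wild type, and at 11.3 and 10.6 FPKM in 5xFAD EGFP. It was at 11.4, 12.4, 13.2 and 11.4 FPKM with circRNA and at 12.7, 13.3, 11.6 and 13.0 FPKM in PKR knockout. Both treated groups lay just above EGFP without overlap, but overlapped wild type. The largest difference from wild type, 0.18 in PKR knockout (SE 0.08), missed the threshold (limma adjusted p = 0.0814) but passed with median-ratio scaling, at 0.28 (limma adjusted p = 0.00837). Also short of the threshold was 0.19 in the knockout against EGFP (SE 0.09, limma adjusted p = 0.390). Between 5xFAD EGFP and wild type the difference was -0.0044 (SE 0.09, limma adjusted p = 0.984).

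Socs4, Socs5 and Socs7 passed in no comparison of the fit described above. Socs4 and Socs5 are the members known for acting on the epidermal growth factor receptor, and Socs7 is known for binding adaptor proteins of insulin and growth factor signalling. Socs4 (chromosome 14) ranged from 2.97 to 4.07 FPKM over the 13 libraries, Socs5 (chromosome 17) from 2.92 to 4.57 and Socs7 (chromosome 11) from 3.39 to 4.78. For each of these genes the highest library was a wild type one. Their log2 changes in the 5 tested comparisons lay between -0.18, for Socs5 in PKR knockout against wild type (SE 0.10, limma adjusted p = 0.151), and 0.12, for Socs4 with circRNA against EGFP (SE 0.08, limma adjusted p = 0.739). Socs5 in PKR knockout against wild type passed as lower with a replicate block (-0.22, limma adjusted p = 0.0411) and when wild type replicate 2 was left out (-0.30, limma adjusted p = 0.0204), and was between -0.30 and -0.083 with 1 library left out. When every library was rescaled to the same sum of FPKM, Socs4 passed as lower in all 3 comparisons with wild type and Socs5 in 2, but that scaling also lowered the median of all genes, as given in the closing section.

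Socs1, Socs2 and Cish sat near the bottom of the measured range. Socs1 is the strong inhibitor of interferon signalling, Socs2 limits growth hormone signalling, and Cish restrains signalling through STAT5. Socs1 (chromosome 16) was at 0.386 to 0.598 FPKM with all groups overlapping, which rests on 58 to 98 fragments. Socs2 (chromosome 10) was at 0.275, 0.191 and 0.343 FPKM in wild type, 0.426 and 0.378 FPKM in 5xFAD EGFP, 0.387 to 0.539 FPKM with circRNA and 0.338 to 0.458 FPKM in PKR knockout. The wild type libraries were the lowest, apart from an overlap of replicate 3 with 1 knockout library. Without the filter on low values, Socs2 with circRNA exceeded wild type by 0.20 log2 units (SE 0.05, limma adjusted p = 0.0171). In the same unfiltered fit Socs2 did not pass in 5xFAD EGFP (0.14, limma adjusted p = 0.153) or PKR knockout (0.13, limma adjusted p = 0.0605) against wild type.

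Cish (chromosome 9, 107296026 to 107302784, plus strand) overlaps 2 antisense models, Gm17040 and Gm17041, and how counting treated the strand is not given in the sources used here. Cish was at 0.429, 0.325 and 0.275 FPKM in wild type and at 0.240 and 0.196 FPKM in 5xFAD EGFP. It was at 0.246, 0.121, 0.131 and 0.326 FPKM with circRNA and at 0.309, 0.151, 0.227 and 0.130 FPKM in PKR knockout. Wild type means were highest, but both 4-library groups overlapped wild type. No Cish difference passed without the filter, the smallest adjusted p being 0.104 in PKR knockout against wild type (-0.16, SE 0.07, limma). Only 38 to 130 fragments stood behind these values, a counting error of 8.77% to 16.2%.

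The pathway around these genes was read through 6 lists, chosen with earlier results of these data known. The 3 comparisons with wild type share its libraries, so their values are set side by side and not counted as separate support. Among cytokines of the gp130 and related families, 4 of 15 listed genes in the table were tested. Osm, which encodes oncostatin M, a gp130 cytokine and inducer of Socs3, was at 4.49, 4.79 and 2.42 FPKM in wild type and at 10.5 and 12.1 FPKM in 5xFAD EGFP. It was at 9.62, 10.9, 10.7 and 7.94 FPKM with circRNA and at 23.2, 28.02, 18.01 and 24.0 FPKM in PKR knockout. No 5xFAD library overlapped wild type, and the knockout libraries lay above all others. Against wild type Osm rose by 1.36 in 5xFAD EGFP (SE 0.22, limma adjusted p = 0.00172) and by 1.17 with circRNA (SE 0.19, limma adjusted p = 0.000623). In PKR knockout it rose by 2.33 (SE 0.19, limma adjusted p = 2.02e-06). The knockout was 0.97 above EGFP (SE 0.21), which missed the threshold (limma adjusted p = 0.116). This Osm difference passed in 3 of 14 alternatives, namely library weights (limma adjusted p = 0.00650), a fit of the 2 groups alone (0.0126) and a replicate block (0.0401), and in no fit with 1 library left out (0.0983 to 0.704). Osmr, which encodes a receptor chain for oncostatin M, was under the filter for testing. Its group means were 0.878 FPKM in wild type, 0.439 in 5xFAD EGFP, 0.721 with circRNA and 0.620 in PKR knockout.

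Other cytokines of the list differed in level. Il6, the classical interleukin of the family, reached at most 1.55 FPKM. It averaged 1.22 FPKM in wild type, 0.806 in 5xFAD EGFP, 0.837 with circRNA and 0.677 in PKR knockout. Lif, the leukaemia inhibitory factor, reached at most 0.189 FPKM. Clcf1, a cytokine of the ciliary neurotrophic receptor, fell by 0.57 with circRNA against wild type (SE 0.14, limma adjusted p = 0.00903). Its group means were 5.90 ± 1.63 FPKM for wild type (SD, n = 3) and 3.55 ± 0.14 FPKM for circRNA (SD, n = 4).

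Of 22 receptor genes, 18 were tested. In 5xFAD EGFP against wild type 1 rose and 2 fell, with circRNA 5 rose and 2 fell, and in PKR knockout 6 rose and 3 fell. Over all genes, 7.65%, 17.8% and 17.5% rose and 6.35%, 8.05% and 19.4% fell in the same comparisons. Csf2ra, the receptor chain for the growth factor GM-CSF, rose in all 3, by 1.30 (SE 0.15, limma adjusted p = 0.000141), 1.33 (SE 0.13, limma adjusted p = 1.17e-05) and 1.65 (SE 0.13, limma adjusted p = 1.51e-06). Il6ra, the receptor for interleukin 6, fell by 0.64 in 5xFAD EGFP (limma adjusted p = 0.0328), with group means of 32.5 ± 7.47 for wild type (SD, n = 3) and 20.1 ± 1.35 FPKM for 5xFAD EGFP (SD, n = 2). Lifr, a partner of gp130, fell by 0.54 in 5xFAD EGFP (limma adjusted p = 0.0179). The 3 calls of the list there became 1 without wild type replicate 1 or EGFP replicate 2. The Il6ra call ended when wild type replicate 1 (limma adjusted p = 0.108) or 2 (0.0859), or 5xFAD EGFP replicate 1 (0.109) or 2 (0.226), was left out, and that of Lifr without wild type replicate 1 (0.0595) or 5xFAD EGFP replicate 2 (0.201).

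With circRNA, Il6ra was also lower than wild type (-0.61, limma adjusted p = 0.0103), while Il2rg, the shared gamma chain, rose by 0.66 (limma adjusted p = 0.0177) and Ifnar2, an interferon receptor chain, by 0.53 (limma adjusted p = 0.0117). The Il2rg call ended without wild type replicate 2 (limma adjusted p = 0.0571). That of Ifnar2 ended with rescaling to the same sum (0.25, limma adjusted p = 0.0801) and with the 2 groups alone (limma adjusted p = 0.0658). In PKR knockout, Csf3r, the receptor for the growth factor G-CSF, rose by 0.72 (limma adjusted p = 0.000991), though by 0.20 with quantile normalization (limma adjusted p = 0.145), and Il2rg by 0.65 (limma adjusted p = 0.0143). Prlr, the prolactin receptor, fell by 1.15 (SE 0.34, limma adjusted p = 0.0201). That fall lost its call without wild type replicate 1 (limma adjusted p = 0.0976) or 2 (0.0507), or without PKR knockout replicate 2 (0.0511) or 4 (0.0533). Il10rb, a chain of the interleukin 10 receptor, had the smallest p of the list in PKR knockout against EGFP (0.33, limma adjusted p = 0.277).

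These further calls were named after their values were seen. Lifr also fell with circRNA (-0.51, limma adjusted p = 0.00515) and in PKR knockout (-0.52, limma adjusted p = 0.00365), and passed there in all 15 alternatives. Il6ra fell in PKR knockout too (-0.46, limma adjusted p = 0.0315), a call that ended in 8 of 15 alternatives, including without wild type replicate 1 (0.134) or 2 (0.0986) or knockout replicate 1 (0.0554), 2 (0.0795) or 4 (0.0724). Il6st, which encodes gp130 itself, rose with circRNA by 0.52 (SE 0.12, limma adjusted p = 0.00846), a call that ended with rescaling to the same sum (0.24, limma adjusted p = 0.0830) and with quantile normalization (0.23, limma adjusted p = 0.0781). Its differences from wild type of 0.29 in 5xFAD EGFP and 0.30 in PKR knockout did not pass (limma adjusted p = 0.247 and 0.0763), though the knockout one did with median-ratio scaling (0.0259) and without knockout replicate 3 (0.0470).

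Among 9 tested JAK and other STAT genes, 2 rose in 5xFAD EGFP and with circRNA against wild type, 3 rose in PKR knockout, and none fell. The shares of all genes that rose were 7.65%, 17.8% and 17.5%, so 2 of 9 with circRNA is near the background. The 2 calls in 5xFAD EGFP became 0 without EGFP replicate 1 and 1 without EGFP replicate 2. Stat2, an interferon-activated STAT, averaged 4.33 ± 0.29 FPKM across wild type libraries (SD, n = 3) and 6.42 ± 0.045 FPKM across those of 5xFAD EGFP (SD, n = 2). It was at 7.72 ± 0.97 FPKM with circRNA and at 7.53 ± 0.80 FPKM in PKR knockout (SD, n = 4 each). The rises of Stat2 over wild type were 0.48, 0.71 and 0.68 (limma adjusted p = 0.0142, 0.000166 and 0.000186). In 5xFAD EGFP that call ended without EGFP replicate 1 (limma adjusted p = 0.0895) or 2 (0.1002). Jak3 rose by 0.33 in PKR knockout against wild type (limma adjusted p = 0.0225), a call that ended with rescaling to the same sum (0.12, limma adjusted p = 0.315), without wild type replicate 3 (0.0830) or PKR knockout replicate 1 (0.0522) or 2 (0.0633).

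Other negative regulators of the pathway had calls in both directions, as did all genes. Of 12 tested genes 3 rose and 2 fell in 5xFAD EGFP, where 7.65% of all genes rose and 6.35% fell. With circRNA 3 rose and 2 fell too, beside 17.8% and 8.05% of all genes. In PKR knockout 3 rose and 3 fell, near the 17.5% of all genes that rose and the 19.4% that fell. The 5 calls in 5xFAD EGFP became 3 without wild type replicate 1 and 1 without EGFP replicate 1 or 2, and with the 2 groups alone there were 0. Usp18, which damps interferon receptors, averaged 1.16 ± 0.05 FPKM across wild type libraries (SD, n = 3) and rose to 2.65 ± 0.77 FPKM with 5xFAD EGFP (SD, n = 2, limma adjusted p = 0.00962). It was at 3.72 ± 0.72 FPKM with circRNA (limma adjusted p = 8.04e-05) and at 4.16 ± 0.61 FPKM in PKR knockout (limma adjusted p = 2.49e-05; SD, n = 4 each). The phosphatase genes Ptpn6 and Ptprc rose by 0.73 and 0.67 in 5xFAD EGFP (limma adjusted p = 0.0174 and 0.00839), by 1.03 and 0.73 with circRNA (0.000316 and 0.000774) and by 0.97 and 0.77 in PKR knockout (0.000384 and 0.000384). Sh2b3, an adaptor that restrains JAK2, fell by 0.58, 0.53 and 0.55 (limma adjusted p = 0.0392, 0.0158 and 0.0108). With EGFP, the Usp18 call ended without EGFP replicate 1 (limma adjusted p = 0.131), that of Ptprc without replicate 2 (0.0934), and that of Ptpn6 without replicate 1 (0.0717) or 2 (0.156). The Sh2b3 call ended in 5xFAD EGFP without wild type replicate 1 (0.119) or 2 (0.105) or EGFP replicate 1 (0.142) or 2 (0.225), and with circRNA without wild type replicate 1 (0.0633) or 2 (0.0617).

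All 8 partners through which the SOCS box recruits ubiquitin were tested. In 5xFAD EGFP against wild type 1 rose and 0 fell, beside 7.65% and 6.35% of all genes. At 1 of 8 this is not a count that stands out. It was 0 when the 2 groups were fitted alone, and no alternative gave more than 3. Elob, which encodes elongin B, averaged 9.74 ± 1.61 FPKM across wild type libraries (SD, n = 3) and 14.4 ± 0.48 FPKM across those of 5xFAD EGFP (SD, n = 2), a rise of 0.53 (limma adjusted p = 0.0225) and the 1 call of the list there. That call ended without EGFP replicate 1 (limma adjusted p = 0.142) or 2 (0.118). With circRNA, where 17.8% of all genes rose, 5 partners rose, including Elob by 0.87 (limma adjusted p = 0.000158), Nedd8, a ubiquitin-like protein that activates cullins, by 0.74 (0.000643), Rnf7, a RING subunit, by 0.43 (0.00728) and Ube2f, which conjugates Nedd8, by 0.29 (0.0158). In PKR knockout, where 17.5% of all genes rose and 19.4% fell, 3 rose and 2 fell, with Elob at 0.68 (limma adjusted p = 0.000816), Nedd8 at 0.58 (0.00272), Eloc, which encodes elongin C, at -0.25 (0.00544) and Ube2f at 0.22 (0.0435). The Rnf7 call ended with rescaling to the same sum (0.16, limma adjusted p = 0.111). With circRNA the Ube2f call ended with that rescaling (0.065, limma adjusted p = 0.376), with the 2 groups alone (0.0616) and without wild type replicate 3 (0.0611). The list count went from 5 to 3 with circRNA without wild type replicate 3, and in PKR knockout without knockout replicate 2. In the knockout the Ube2f call ended in 10 of 15 alternatives, including without wild type replicate 2 (0.0749) or 3 (0.158) or knockout replicate 1 (0.0829), 2 (0.0980) or 4 (0.0984).

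Of 20 listed genes known to be induced by STAT3, 16 were tested, and this list had the highest median change of the 6 in PKR knockout against wild type. There 8 rose and 2 fell, with a median of 0.35 against -0.05 over all genes, of which 17.5% rose and 19.4% fell. In 5xFAD EGFP 3 rose and 2 fell, with a median of 0.17 against -0.03 over all genes, of which 7.65% rose and 6.35% fell. With circRNA 4 rose and 2 fell, with a median of 0.21 against 0.02 over all genes, of which 17.8% rose and 8.05% fell. In PKR knockout against EGFP none of the 16 passed, and the median was 0.28 against 0.01. With the 2 groups alone 3 passed there and with library weights 4, against 0 in the other 12 alternatives. In 5xFAD EGFP against wild type the list count went from 5 to 3 without wild type replicate 1, EGFP replicate 1 or EGFP replicate 2. The listed genes under the filter, Lcn2, Saa3, Timp1 and Il1rn, reached at most 0.777, 0.0274, 0.224 and 0.399 FPKM in any library.

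Hif1a, the hypoxia-inducible factor, rose most of the 16, by 2.03 over wild type in 5xFAD EGFP (limma adjusted p = 5.76e-06). Its means there were 48.3 ± 2.37 (SD, n = 2) and 11.1 ± 1.67 FPKM (SD, n = 3). It was 2.25 above wild type both with circRNA (limma adjusted p = 2.24e-07) and in PKR knockout (limma adjusted p = 2.00e-07). Nfil3, a transcription factor gene, rose by 1.20, 1.17 and 1.89 in the 3 groups (limma adjusted p = 0.00136, 0.000185 and 3.19e-06), and Fgl2, a fibrinogen-like gene, by 1.04, 1.52 and 1.19 (limma adjusted p = 0.00547, 4.28e-05 and 0.000233). The Fgl2 call in 5xFAD EGFP ended without EGFP replicate 1 (limma adjusted p = 0.0752). Cebpd, which encodes another transcription factor, fell by 0.63 in 5xFAD EGFP (limma adjusted p = 0.0181) and by 0.50 with circRNA (limma adjusted p = 0.0149). Those calls ended without wild type replicate 1 (0.0591 and 0.0530) or 2 (0.0511 and 0.0622), and in 5xFAD EGFP also without EGFP replicate 1 (0.0507) or 2 (0.194).

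Junb, an AP-1 gene, was at 172, 160 and 106 FPKM in wild type and at 181 and 191 FPKM in 5xFAD EGFP. It was at 166, 180, 191 and 129 FPKM with circRNA and at 397, 397, 330 and 327 FPKM in PKR knockout. Its knockout libraries lay above all others, as for Socs3, and the rise over wild type was 1.33 (SE 0.18, limma adjusted p = 0.000158), or 0.70 with quantile normalization (limma adjusted p = 0.00157). Against EGFP the difference was 0.95 (SE 0.21, limma adjusted p = 0.116). For Junb it passed in 2 of 14 alternatives, namely library weights (limma adjusted p = 0.00532) and a fit of the 2 groups alone (0.00657), and in no fit with 1 library left out (0.147 to 0.723). In the contrast on which Socs3 was chosen, 4 genes of the list were past the threshold, lower with circRNA than in PKR knockout, by -1.13 (Junb), -0.72 (Nfil3), -0.58 (Bcl3) and -0.48 (Mcl1). Over all genes 1.91% were lower at that threshold, and the contrast is given as a description. The list count was 2 without circRNA replicate 1, PKR knockout replicate 1 or PKR knockout replicate 3, and 8 with library weights.

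**Figure D3:**
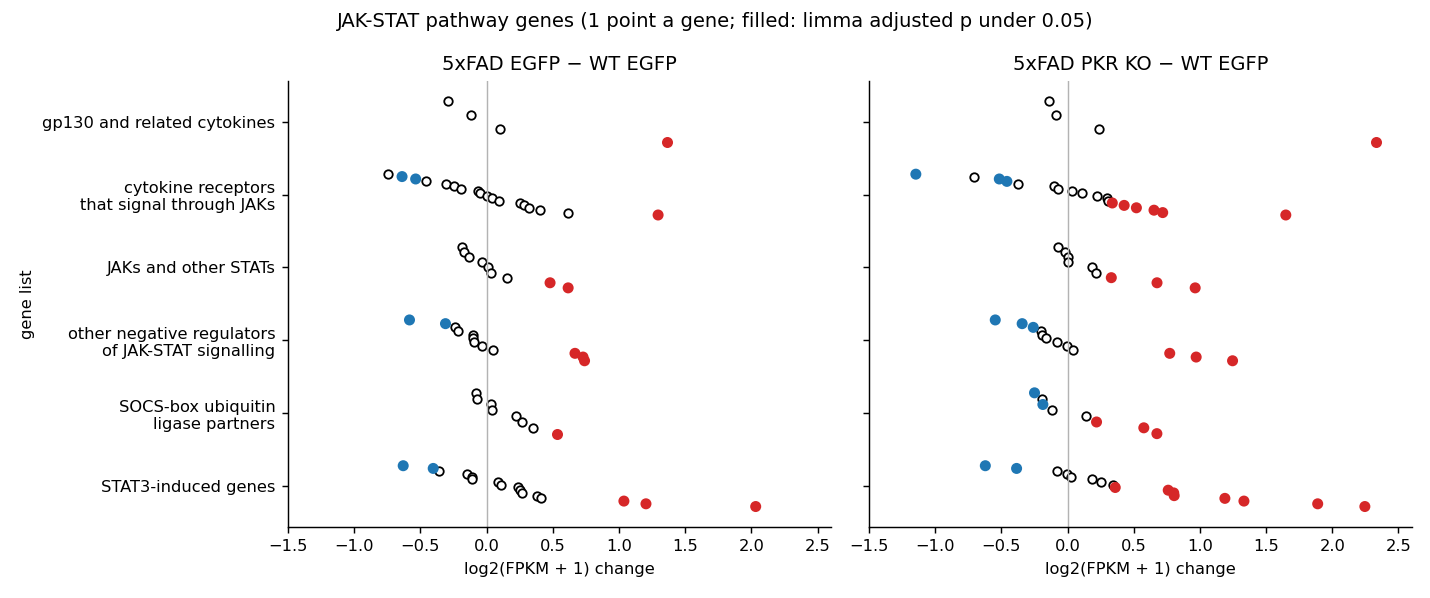
Log2(FPKM + 1) change (x axis) of each tested gene in the 6 pathway lists (y axis) against wild type, for 5xFAD EGFP and for 5xFAD PKR knockout; red and blue points passed as higher or lower. Osm is the far right point of the cytokine list, at 1.36 and 2.33, and Hif1a is the far right point of the STAT3-induced list in 5xFAD EGFP, at 2.03.

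The summed level of 15 genes listed for handling of cells was also highest in the knockout libraries. They were immediate-early genes, which respond within minutes, and the heat shock genes Hspa1a, at 15.1 to 106 FPKM, and Hspa1b, at 30.1 to 219 FPKM. Their summed FPKM was 1107, 705 and 646 in wild type, 1199 and 1283 in 5xFAD EGFP, 1148, 977, 796 and 765 with circRNA, and 1741, 1646, 1593 and 1398 in PKR knockout. The knockout libraries were the 4 highest in sum, and 12 of the 15 genes rose and 2 fell in PKR knockout against wild type, where 17.5% of all genes rose and 19.4% fell. In PKR knockout against EGFP 13 of the 15 had a positive change but 0 passed, beside 0.0832% of all genes. In 5xFAD EGFP against wild type 6 of the 15 rose and 0 fell, beside 7.65% of all genes that rose and 6.35% that fell. With circRNA 3 rose and 1 fell, beside 17.8% and 8.05% of all genes. In the contrast that chose Socs3, 12 of the 15 were lower with circRNA than in the knockout, beside 1.91% of all genes. Per 100 FPKM of this sum, Socs3 was at 2.25 to 3.53 in wild type, 2.102 to 2.18 in 5xFAD EGFP, 1.70 to 2.81 with circRNA and 2.98 to 4.54 in PKR knockout. On that ratio the knockout libraries overlapped wild type replicate 2 and no other library. The part of handling in the Socs3 and Osm levels was not tested.

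Markers of other cells are set beside Socs3 here, and their part in its level was not tested. The 5 monocyte markers summed to at most 1.98 FPKM and the lymphocyte markers to at most 0.52 FPKM in any library. Neutrophil markers summed to 24.9 FPKM in PKR knockout replicate 4, where Socs3 was 63.5, but to 1.28 to 4.94 FPKM in the other knockout libraries, where Socs3 was 47.5 to 70.9. Border macrophage markers summed to 15.6 to 21.4 FPKM in the knockout and to 15.5 to 28.6 FPKM in the other 5xFAD libraries, and endothelial and mural markers to 49.2 to 75.1 and 35.7 to 97.3 FPKM. Oligodendrocyte markers summed to 226 to 377 FPKM in the knockout and to 307 to 1584 FPKM elsewhere.

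**Figure D4:**
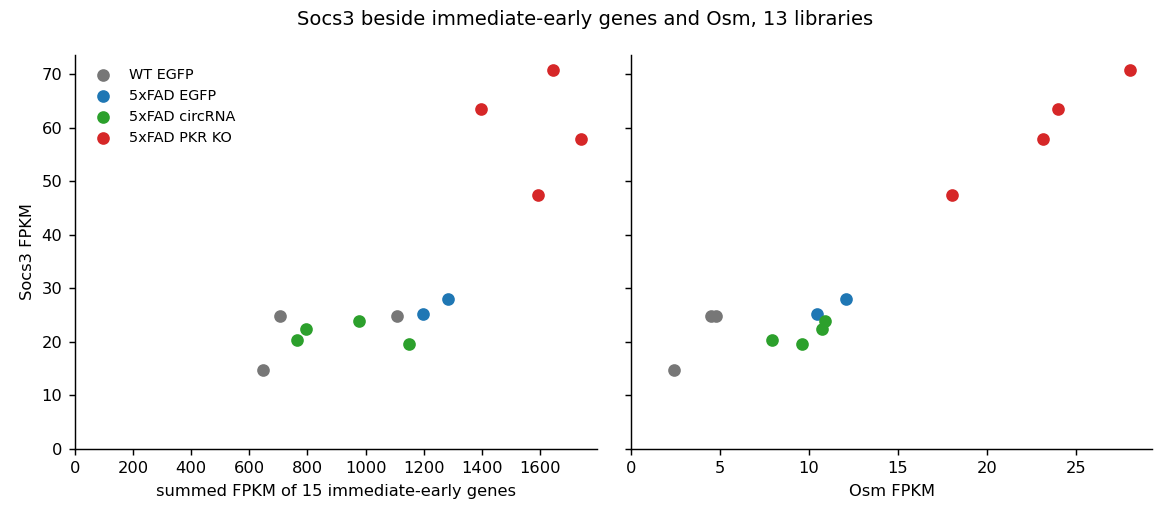
Socs3 FPKM (y axis) in 13 libraries against the summed FPKM of the 15 immediate-early and heat shock genes (left) and against Osm FPKM (right), coloured by group. The 4 PKR knockout libraries are the highest on all 3 measures, with immediate-early sums of 1398 to 1741 and Osm of 18.01 to 28.02 FPKM.

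The genes whose pattern was most like that of Socs3 over the 13 libraries, by Pearson's r of log2(FPKM + 1), were Csrnp1 (0.98), Junb (0.97), Sbno2 (0.97), Nfkbid (0.96) and Acin1 (0.96). Because the knockout libraries spread these points, r was also taken over the 9 others, where it was 0.83, 0.85, 0.87, 0.83 and 0.75. In the knockout against EGFP, Csrnp1 averaged 8.004 ± 0.85 against 4.58 ± 0.56 FPKM and Nfkbid 20.7 ± 1.92 against 11.7 ± 0.35 FPKM (SD, n = 4 and 2). For Stat3 the most alike were Ptbp1 (0.96), Myh9 (0.95), 1810030O07Rik (0.94), Tln1 (0.93) and Ubash3b (0.93), a different set, with r of 0.90 to 0.97 over the 9 libraries. For Cish they were Mdm2 (0.98), Gm9780 (0.94), Col9a3 (0.94), Dpm1 (0.91) and Acad8 (0.91). These are descriptions over libraries that share 1 scaling, and the genes were the best of 10817.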

How the data were processed

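The authors deposited 1 table of FPKM values with a column per library, not pooled. Bowtie2 2.3.5, HISAT2 2.1.0, featureCounts 1.5.1 and build mm10 are named in the submitters' processing notes. The annotation, strand setting and filters are not given in the sources used here. Stranded TruSeq libraries from RiboMinus-depleted RNA were sequenced on a NovaSeq instrument, per the labels' protocols. FPKM is scaled to each library's total, so a few abundant genes can move all others. Sums ran from 123352 to 170775 FPKM.

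Log2(FPKM + 1) was fitted with limma 3.58.1 in R 4.3.3, with an intensity trend, all 13 libraries in 1 model (9 residual degrees of freedom) and the 10817 genes whose mean reached 1 FPKM. P-values were adjusted within each of 6 comparisons, and for circRNA against PKR knockout they serve only to count genes past the threshold. The fit was also run on simulated data, and the outcome is not reported here. Depth was recovered from the steps of low values with GENCODE M21 exon lengths (GRCm38), where 96.3% to 97.4% of values below 0.3 FPKM were multiples of 0.5 fragments within 0.02. Counting errors cover counting only.

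Members and lists were chosen with earlier results of these data known. Named list genes were up to 4 with the largest change among those passing in a comparison, otherwise the 1 with the smallest p, and some of these are not reported here. Il6, Lif, Osmr and the STAT3-induced genes under the filter are given as values only, and the lists' other genes under it are not reported here. The 5 genes most like Socs3, Stat3 and Cish were named by r. Alternatives were another pseudocount, no filter, 3 scalings, 2 groups alone, library weights, a replicate block and leaving out each library.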

Additional observations from a re-analysis of the deposited data

Results flagged for a closer look

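Single libraries that stood apart within a group of 4 were looked for in 56 named genes (112 group checks), by the gap to the nearest library over the group's range against Dixon's critical value. Chance gives about 1 in 20, and 3 were found, none in a SOCS gene or Stat3. With circRNA, Clcf1 in replicate 3 was lowest at 3.33 FPKM, against 3.60 for the next library. Acin1 in the same library was lowest at 10.8 FPKM, against 11.1. In PKR knockout, Eloc in replicate 4 was highest at 4.84 FPKM, against 4.38 for the next.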

How the results depend on the processing

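Socs6 passed against wild type under every alternative run in all 3 comparisons. No paired samples are named by the labels, and deviations of same-numbered libraries correlated from -0.42 to 0.69 across genes, so a replicate block was run as an alternative. With the block, 1 member (Socs3, 1.25, limma adjusted p = 0.0367) passed in PKR knockout against EGFP, Socs5 with circRNA against EGFP became -0.073 and Socs7 in PKR knockout against EGFP -0.030. Also 1 member, Socs3, passed in PKR knockout against EGFP with median-ratio scaling, with 2 groups alone and with library weights. Of 10817 genes, 22 passed there with the block, 46 with median-ratio scaling and 822 with library weights, and 541 of 10545 with 2 groups alone. Nothing is read from these passes of Socs3, since the knockout libraries were used to choose it.

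Rescaling to the same sum moved the median of all genes to -0.17, -0.20 and -0.24 in 5xFAD EGFP, circRNA and PKR knockout against wild type, where without it these were -0.03, 0.02 and -0.05. Under it 2, 3 and 4 of 6 members passed, beside 34.3%, 52.5% and 61.0% of all genes, with Socs4 lower in each (-0.24, -0.21 and -0.33), changes close to that median. The share of passing genes that were higher fell from 54.6% to 19.1%, 68.8% to 17.5% and 47.5% to 17.8%. Against wild type it turned Socs7 in 5xFAD EGFP to -0.078, Socs3, Socs7 and Stat3 with circRNA to -0.24, -0.20 and -0.14, and Socs7 and Stat3 in PKR knockout to -0.10 and -0.033. Against EGFP it turned Socs5 with circRNA to -0.074 and Socs7 in PKR knockout to -0.026.

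Other turned values were also small. Quantile normalization gave -0.047 for Socs5 with circRNA against EGFP and, against wild type, -0.15 for Socs3 and -0.0078 for Socs7 with circRNA. Median-ratio scaling gave 0.057 for Stat3 in 5xFAD EGFP against wild type and -0.052 for Socs5 with circRNA against EGFP. Library weights gave -0.21 for Socs3 and 0.0063 for Socs5 with circRNA against wild type. Without the filter 2 of the 9 members passed with circRNA against wild type, Socs2 being the second, beside 3568 of 18291 genes. For circRNA against PKR knockout, Socs3 stayed between -1.55 and -1.34, while the share of passing genes that were higher went from 69.1% to 17.5% with median-ratio scaling.

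Leaving out 1 library at a time turned only changes that had not passed. Against wild type, these ranges in 5xFAD EGFP were -0.22 to 0.0011 for Socs5, -0.042 to 0.16 for Socs7 and -0.054 to 0.044 for Stat3. With circRNA they were -0.20 to 0.15 for Socs3, -0.025 to 0.10 for Socs4, -0.20 to 0.017 for Socs5 and -0.075 to 0.12 for Socs7, and in PKR knockout -0.021 to 0.18 for Socs7. Against EGFP they were -0.054 to 0.086 for Socs5 and -0.096 to 0.029 for Socs7 with circRNA, and -0.13 to 0.045 for Socs4 and -0.041 to 0.084 for Socs7 in PKR knockout.

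Over all genes, the number passing ranged over the alternatives from 393 to 3709 in 5xFAD EGFP against wild type (1514 as reported), 1720 to 5676 with circRNA (2796) and 3122 to 6595 in PKR knockout (3997). For PKR knockout against EGFP it was 0 to 822 (9), and for circRNA against PKR knockout 146 to 3161 (670).

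Fitted with the 2 groups alone, the calls of Il6ra, Lifr, Stat2, Usp18, Ptpn6, Ptprc, Sh2b3, Elob and Cebpd in 5xFAD EGFP against wild type ended (limma adjusted p = 0.0554 to 0.186), as did those of Il6ra, Ifnar2, Sh2b3, Ube2f and Cebpd with circRNA (0.0503 to 0.0681). In 5xFAD EGFP a replicate block also ended the calls of Il6ra, Sh2b3 and Elob (limma adjusted p = 0.0564, 0.0702 and 0.0592). Without the filter that of Sh2b3 ended too (limma adjusted p = 0.0545).

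Among named calls that held, rescaling to the same sum moved these by over 1.5 times against wild type: with circRNA, Stat2 to 0.46, Ptprc to 0.45, Nedd8 to 0.47, Sh2b3 to -0.82 and Cebpd to -0.75, and in PKR knockout, Nedd8 to 0.36 and Eloc to -0.45. Eloc was at -0.16 with median-ratio scaling. With a pseudocount of 0.1, Il2rg was at 1.15 with circRNA and 1.14 in PKR knockout, and Prlr at -1.96 in PKR knockout.

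List counts against wild type also moved by over 1.5 times. In 5xFAD EGFP, circRNA and PKR knockout, rescaling to the same sum took the negative regulators from 5, 5 and 6 to 8, 11 and 10, and the JAK and STAT genes from 2, 2 and 3 to 4, 5 and 5. In 5xFAD EGFP it took the receptors from 3 to 6 and the SOCS-box partners from 1 to 2. Fitted with the 2 groups alone, 5xFAD EGFP had 1 receptor call, 3 STAT3-induced ones and 0 among JAK and STAT genes, negative regulators and partners, and circRNA had 4 receptor calls in place of 7. The partners were at 3 in place of 5 with circRNA and in PKR knockout.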
